A study of Rattus norvegicus with 32 samples.

Results

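Lung RNA taken 72 h after a hemorrhage was compared with lung RNA of sham rats, on 3 arrays against 5, which is 8 of the 32 lung samples of the series. The members were chosen by the sample labels: hemorrhage at 72 h, replicates 1 to 3, and sham, replicates 1, 3, 4, 5 and 6. In the 72 h group, male Sprague-Dawley rats of 280 to 300 g carried arterial catheters and a telemetry device, recovered for 7 to 10 days and then lost 40% of their estimated blood volume. Sham rats were instrumented in the same way and kept their blood, and control rats (3 arrays) had no instruments and no bleeding. Lungs taken at 48 h and at 24 h after the same bleeding (3 arrays each) serve below as a direct comparison. Strain, sex and weight range are common to all groups; bled and sham rats share the surgery, while the labels do not settle when sham lungs were taken. Nothing in the labels numbers the animals, so p-values measure the spread between these samples only.

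Each array set lung RNA against a pool of RNA from several organs of untreated rats, and a value is a log2 ratio of lung over pool after the array's median was set to 0. A value above 0 therefore means more signal in lung than in the pool relative to the typical gene, and a difference of 1 between groups is a 2-fold difference. Whole lung was measured: more cells of a type and more RNA per cell cannot be told apart, and probe levels are not set against each other.

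The lung takes the whole output of the right heart, so blood loss and the return of volume reach its vessels at once. Its air spaces are lined by flat type I cells for gas exchange and by type II cells, which make surfactant, the film that keeps alveoli open. Club cells of the small airways secrete an abundant protective protein, and mast cells lie near vessels and airways. Neutrophils are known to lodge in lung capillaries after severe hemorrhage.

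On these 8 arrays 12537 to 12764 of 13056 spots carried a value, and paired spots correlated at 0.747 to 0.864. Arrays correlated at 0.528 to 0.598 within the 72 h group, at 0.370 to 0.634 between the 72 h and the 5 sham arrays, and at 0.588 to 0.716 within sham (15 pairs between groups). Of 6 lung markers, Sftpc, Sftpb, Sftpd, Scgb1a1 and Ager lay above 0 on all 8 arrays, whereas Car4, an endothelial carbonic anhydrase, lay at -0.36, -0.27 and -4.31 at 72 h and between -0.14 and 1.67 in sham. On the same arrays the liver gene Alb lay between -3.63 and -2.79 on the 72 h arrays and between -4.48 and -2.78 on the sham arrays. Sham replicate 2 stands apart: it had Alb at 2.62, Hp at 5.12 and Sftpc at -3.48, correlated with the 72 h arrays at -0.12 to 0.09, and is left out of all means. Replicate 3 of the 16 h group had Alb at 2.09 and Hp at 4.62 and is left out of the fit for the same reason.

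Of 6168 features tested (a gene, or a spot pair without a single gene symbol), 115 were higher at 72 h than in sham, which is 1.86%, and 212 were lower, which is 3.44% (limma, adjusted p under 0.05). Together these are 327 features or 5.3%, and 280 of them carry 1 gene symbol. The shares of 1.86% higher and 3.44% lower are the reference for each count of list members below. With sham replicate 2 put back, 235 features were called (73 higher and 162 lower), of which 210 were among the 327. The 3 values of the 72 h group and the 5 of sham did not overlap for 1124 features or 18.2% (565 or 9.16% higher and 559 or 9.06% lower), and for 292 of the 327. Over all features the median log2 change was 0.02. Features called higher had a median level of 0.51 at 72 h and of -0.82 in sham, and features called lower had -0.68 at 72 h and 0.56 in sham, on opposite sides of the organ pool.

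**Figure D1:**
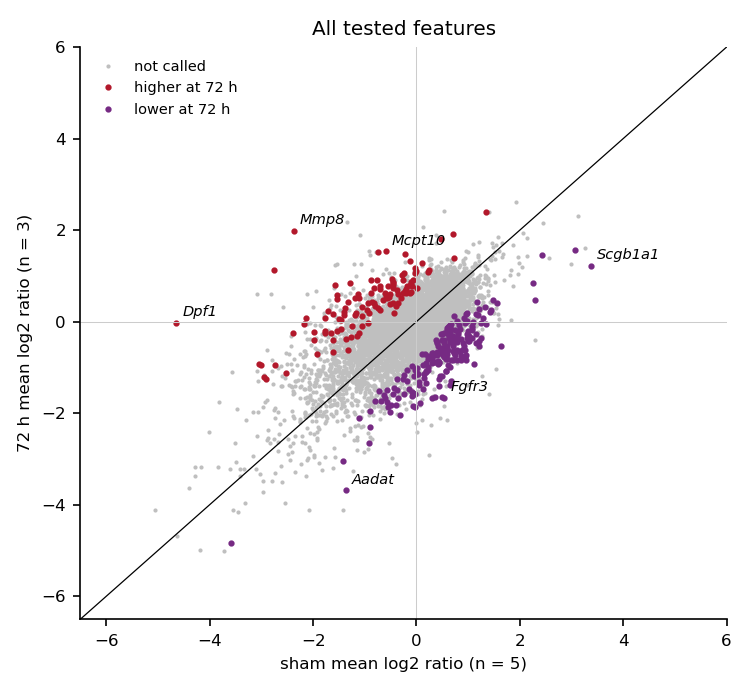
Mean log2 ratio of lung over organ pool at 72 h (vertical axis, n = 3) against sham (horizontal axis, n = 5) for the 6168 features tested, with equal values on the diagonal. The 115 features called higher (red) lie mostly left of 0 on the sham axis, and the 212 called lower (purple) lie mostly right of it; Mmp8, Mcpt10, Dpf1, Fgfr3, Scgb1a1 and Aadat are named.

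How far the calls depend on single arrays differed between genes. In each of 8 repeats 1 of the 8 arrays was left out, and 25 features (8 higher and 17 lower) were called in all of them. The 21 of these with a symbol were Mmp8, Mcpt10, Mcpt9, Cnnm1, Ube3a, Gemin2, Atp2c2 and Rsad2 on the higher side, and Fgfr3, Hes5, Rpl36, Phrf1, Nr3c2, Ddx39b, Gpx4, Chrna9, Aven, Ctsh, Tnrc6b, Ctss and Tubg1 on the lower side. Ube3a, Gemin2, Atp2c2, Chrna9, Aven, Tnrc6b and Tubg1 fall outside the rule for named genes and were chosen after their values were seen. Of these 21, Cnnm1 and Tnrc6b were not called with sham replicate 2 put back. Without 72 h replicate 2 the count of features called fell to 44 and without 72 h replicate 3 to 31, and every called feature outside the 25 lost its call in at least 1 of the 8 repeats. Without sham replicate 3 it was 197 and without sham replicate 5 it was 209.

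**Figure D2:**
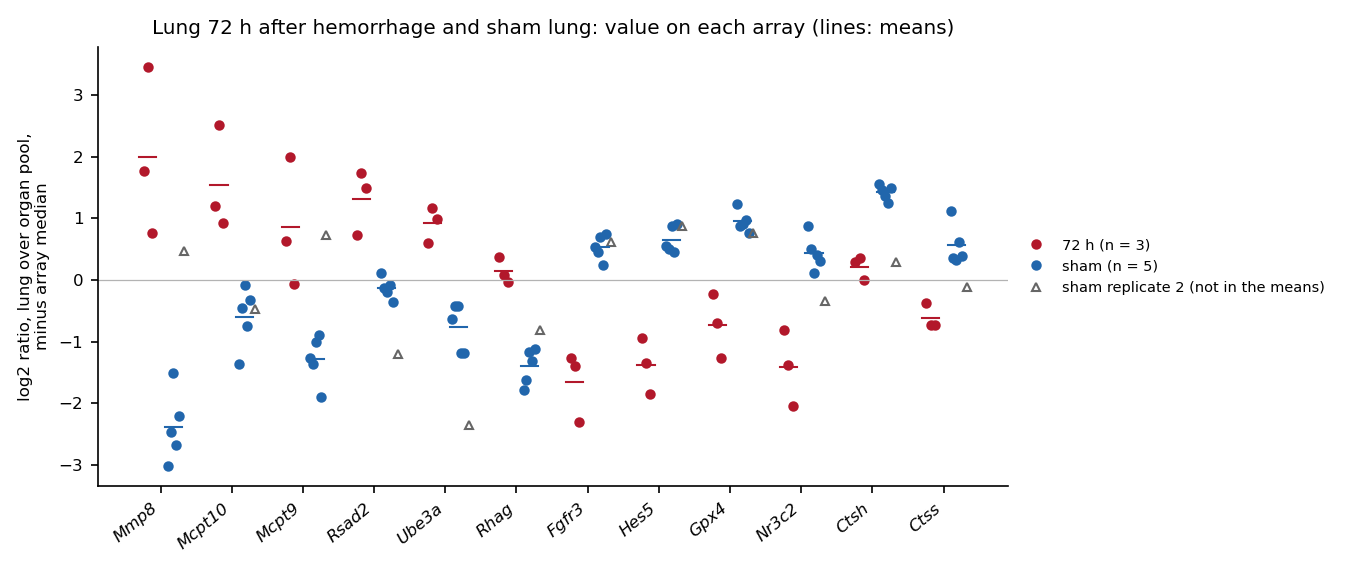
Log2 ratio of lung over organ pool, minus the array median, of 12 genes on each array: 72 h (red, n = 3), sham (blue, n = 5, lines are means) and sham replicate 2 (open triangles, not in the means). For all 12 genes the red and blue points do not overlap, as holds for 292 of the 327 called features and for 18.2% of all features. The 12 were chosen from called features, so their separation adds no support. Mmp8 has the widest gap of the 12, with 0.75 to 3.46 at 72 h against -3.02 to -1.51 in sham.

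Among called genes without spots near the floor of the scale, the largest change was that of Mmp8, the collagenase that neutrophils store in their granules. Mmp8 stood at 1.76, 3.46 and 0.75 on the 72 h arrays, against -3.02, -2.47, -1.51, -2.68 and -2.21 on the sham arrays. All 72 h values lay above the pool and all sham values below it. The log2 change was 4.37 ± 0.70 (SE of the fit), with an adjusted p of 0.00178, and leaving out single arrays gave 3.64 to 4.99. On sham replicate 2 the value was 0.48, above the other sham arrays.

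Mmp8 was the single called gene among 19 tested neutrophil and granulocyte genes, whose median change was 0.07, against 0.02 for all features. S100a9, one chain of the neutrophil protein calprotectin, had 2.14, 3.34 and 0.70 at 72 h, against -0.62, -0.45 and -0.09 on 3 of the sham arrays and 1.78 on sham replicate 4. Its groups overlapped, and the change of 1.94 ± 0.72 had an adjusted p of 0.112. S100a8, the partner chain, differed by 0.07 ± 0.37 (adjusted p = 0.938). The mean over the 19 genes, Mmp8 included, ranged from 0.21 to 0.40 on the 72 h arrays and from -0.14 to 0.05 on the sham arrays, without overlap. Their median on each array, which 1 gene hardly moves, ranged from 0.32 to 0.50 at 72 h and from -0.02 to 0.46 in sham, and these ranges overlapped. Lcn2 and Cxcr2, further neutrophil markers, overlapped between the groups. Lcn2 had 0.97, 0.64 and 0.61 at 72 h, against 1.24, 0.38, 1.80, 0.83 and 0.84 in sham. Cxcr2 had 0.73, 0.43 and -0.18 at 72 h, against 0.92, 0.04, 1.05, 0.32 and 0.52 in sham. Of the changes of the 19 genes, 11 were above 0 and 8 below. Mpo, Elane and Camp carry no value on these arrays. Whether neutrophil number has a part in the Mmp8 result was not tested.

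Matrix metalloproteinases as a family had 13 members measured, of which Mmp8 and Mmp13 were called higher. Mmp13, another collagenase, had 0.75, 1.10 and 1.43 at 72 h, against 0.49, -0.20, 0.19, 0.18 and 0.48 in sham, a change of 0.86 ± 0.25 (adjusted p = 0.0447). Mmp9, the neutrophil gelatinase, changed by 0.17 (adjusted p = 0.873). In the list of 57 extracellular matrix and remodelling genes the third call was Tgfbr3, the co-receptor betaglycan, which was lower by -0.84 ± 0.21 (adjusted p = 0.0235). Against uninstrumented control lungs Tgfbr3 differed by 0.10 (adjusted p = 0.84). Its mean was -0.29 in control, -0.19 at 72 h and 0.65 in sham. Elastin (Eln, -1.01, adjusted p = 0.0621) and fibronectin (Fn1, -1.06, adjusted p = 0.0751) were below sham without a call. The median of the list was -0.01.

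Genes of mast cells, basophils and eosinophils had 4 of 20 tested members called higher and 0 called lower, where 1.86% of all features were called higher. The 4 were Mcpt10, Mcpt9, Kit and Ccr3. The median change of the list was 0.44, and 17 of its 20 members were above 0. The mean over the 20 genes ranged from 0.10 to 0.30 on the 72 h arrays and from -0.82 to -0.22 on the sham arrays. Their median on each array ranged from -0.10 to 0.13 at 72 h and from -0.94 to -0.18 in sham, so the groups overlapped by neither measure. The same held for the apoptosis list and for the gut and skin list. By the mean alone, other lists did not overlap either, among them the surfactant, endothelial, VEGF and B cell lists. On sham replicate 2 the mean was -0.02 and the median 0.25.

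Mcpt10 and Mcpt9 encode granule serine proteases of rat mast cells. Mcpt10 had 1.19, 2.52 and 0.93 at 72 h, against -1.37, -0.45, -0.09, -0.74 and -0.33 in sham, a change of 2.14 ± 0.38 (adjusted p = 0.00235). Mcpt9 had 0.63, 1.99 and -0.06 at 72 h, against -1.26, -1.36, -1.01, -0.89 and -1.90 in sham, which is also 2.14 ± 0.38 (adjusted p = 0.00235). Both were lowest on 72 h replicate 3 and highest on replicate 2, the order that Mmp8 had. The 2 proteases are close relatives of Mcpt8 (0.23, adjusted p = 0.795), and signal shared between their probes was not tested. Of 6 Mcpt genes measured 2 were called; Mcpt3 changed by 0.50, Mcpt4 by 0.43 and Mcpt1 by -0.10.

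Kit, the receptor for stem cell factor that mast cells depend on, had 1.19, 1.12 and 1.01 at 72 h, against 0.55, 0.09, -0.19, 0.02 and -0.51 in sham (1.11 ± 0.28, adjusted p = 0.023). Ccr3, the eotaxin receptor of eosinophils and basophils, had 0.68, 1.60 and 0.91 at 72 h, against 0.37, -0.42, 0.25, -0.21 and -0.15 in sham (1.09 ± 0.26, adjusted p = 0.0198). Neither overlapped, and both calls were lost without 72 h replicate 2, with adjusted p of 0.0999 for Kit and 0.159 for Ccr3. Each was called in 6 of the 8 repeats with 1 array left out. Other defining mast cell genes were not called: Cpa3 changed by 0.14, Fcer1a by 0.54, Ms4a2 by -0.32 and Cma1 by -0.34. On sham replicate 2 Kit (1.03) and Ccr3 (0.94) were as high as at 72 h.

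Rsad2 encodes viperin, an antiviral enzyme whose gene is switched on by interferons. Rsad2 had 0.73, 1.73 and 1.50 on the 72 h arrays, against 0.11, -0.13, -0.20, -0.09 and -0.36 on the sham arrays. Its change of 1.45 ± 0.26 (adjusted p = 0.00261) was called in all repeats with 1 array left out. The promoter is shown because Rsad2 was the interferon-stimulated gene called higher; it covers chr6:48788071-48788370 of GRCr8 on the minus strand, from RefSeq, with 250 bases before and 50 after the start of the gene. Capitals mark the 1 match, on the opposite strand, to the core of the interferon-stimulated response element, GAAA and GAAA with 2 bases between them, at -147 to -138; on either strand 3.92% of 33469 rat promoter windows of this length hold one.
Rsad2: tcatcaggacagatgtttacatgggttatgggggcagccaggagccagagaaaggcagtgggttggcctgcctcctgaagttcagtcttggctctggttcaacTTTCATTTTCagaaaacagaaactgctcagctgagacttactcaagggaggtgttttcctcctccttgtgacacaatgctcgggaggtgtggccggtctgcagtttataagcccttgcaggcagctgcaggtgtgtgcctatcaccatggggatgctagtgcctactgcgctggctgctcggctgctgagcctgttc

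The other 19 tested members of the interferon list did not rise by the test, and the list's median was 0.11. Mx2 (0.84, adjusted p = 0.118), Mx1 (0.73, adjusted p = 0.303) and Ifit1 (0.68, adjusted p = 0.27) were above sham without a call, while Oas1b (-0.92) and Tap2 (-0.65) were below. Ifng, which encodes interferon gamma itself and stands in the list as a ligand, was called lower. It had 0.04, -0.51 and -0.15 at 72 h, against 0.94, 1.19, 1.22, 1.06 and 0.56 in sham, a change of -1.20 ± 0.24 (adjusted p = 0.00699), and the call was lost without 72 h replicate 2.

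Among 55 cytokine, chemokine and NF-kB response genes, 3 were higher and 0 lower, with a median of -0.01. Il2, the T cell growth factor, had -0.94, -0.37 and 0.10 at 72 h, against -2.84, -1.75, -2.10, -1.58 and -1.66 in sham (1.58 ± 0.39, adjusted p = 0.023). Ccl20, which draws Ccr6-bearing lymphocytes, had 0.13, 0.65 and 0.34 at 72 h and -0.72 to -0.26 in sham (0.89 ± 0.23, adjusted p = 0.0249). Cxcl3, a neutrophil chemoattractant, had 1.80, 2.83 and 2.59 at 72 h; sham replicate 1 reached 2.35, inside that range, and the other sham arrays lay at 0.86 to 1.42 (1.07 ± 0.31, adjusted p = 0.047). Cxcl2, its close relative, changed by 0.97 (adjusted p = 0.112), and Cxcl1 by -0.76 (adjusted p = 0.0768).

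Calls in the other leukocyte lists stand beside 1.86% higher and 3.44% lower over all features. Of 31 T and NK cell genes Cd53, a tetraspanin of leukocytes, was higher at 1.71 ± 0.44 (adjusted p = 0.0249) and Ptprc, the leukocyte common antigen CD45, was lower at -1.08 ± 0.24 (adjusted p = 0.0126). Cd53 had 0.97, 2.24 and 1.24 at 72 h, against 0.68, -0.51, 0.54, -0.51 and -1.30 in sham, and Ptprc had -0.13, -0.30 and -0.77 against 0.53, 1.02, 0.13, 1.01 and 0.71. Both are found on most leukocytes, and they differed in opposite directions. None of 11 B and plasma cell genes was called, with 2 at an unadjusted p under 0.05. Defining macrophage genes (Cd68, Cd163, Mrc1, Msr1 and Csf1r) carry no value here.

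Of 15 macrophage and monocyte genes the lysosomal proteases Ctss and Ctsd were lower and 0 were higher, where 3.44% of all features were called lower. Ctss, cathepsin S, which trims the invariant chain of MHC class II, had -0.38, -0.74 and -0.73 at 72 h, against 1.12, 0.36, 0.33, 0.62 and 0.40 in sham (-1.18 ± 0.22, adjusted p = 0.00419). Ctsd, the aspartic protease cathepsin D, had 0.34, -0.26 and -0.16 at 72 h, against 1.93, 0.61, 1.37, 1.17 and 1.18 in sham (-1.28 ± 0.28, adjusted p = 0.0126). A further cathepsin, Ctsh, which takes part in processing surfactant proteins, had 0.29, 0.36 and -0.01 at 72 h, against 1.56, 1.47, 1.36, 1.24 and 1.49 in sham. Its change was -1.21 ± 0.20 (adjusted p = 0.00178), with an SD of 0.19 at 72 h and of 0.12 in sham. Ctsb changed by 0.28 (adjusted p = 0.603).

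The 3 called genes of the club cell list were lower at 72 h. Scgb1a1, the secretory protein of club cells, had 1.65, 0.94 and 1.08 at 72 h, against 3.78, 3.43, 3.96, 2.52 and 3.19 in sham. It stayed above the organ pool in both groups, with a mean of 1.22 ± 0.37 at 72 h and 3.37 ± 0.56 in sham (SD, n = 3 and 5). The change was -2.15 ± 0.55 (adjusted p = 0.0249). Fmo2, the flavin monooxygenase of lung, had 1.27, -0.10 and 0.27 at 72 h, against 2.24, 2.77, 2.13, 2.15 and 2.17 in sham (-1.81 ± 0.39, adjusted p = 0.00988). Cyp4b1, a lung cytochrome P450, was lower by -1.02 ± 0.30 (adjusted p = 0.0487), but its 2 probes disagreed, with -2.21 (adjusted p = 0.0064) and 0.16 (adjusted p = 0.805). The club cell and lung monooxygenase list had 3 of 14 tested genes lower and 0 higher, beside 3.44% lower over all features. Its median was -0.12, and Cyp1a1 changed by 1.70 without a call (adjusted p = 0.147).

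Of 17 surfactant and type II cell genes, Ctsh and Sftpb were lower and Cd36 was higher, with a median of -0.42 and 13 of 17 below 0. Sftpb, the surfactant protein without which the film does not form, had 2.14, 1.29 and 1.29 at 72 h, against 3.89, 2.95, 2.99, 2.50 and 3.03 in sham (-1.50 ± 0.32, adjusted p = 0.00916). Sftpc, the surfactant protein made by type II cells alone, had 0.82, 2.74 and 1.27 at 72 h, against 3.26, 3.24, 4.48, 2.22 and 3.08 in sham. Its groups overlapped through 72 h replicate 2, and the change of -1.65 ± 0.49 had an adjusted p of 0.0501, just above the threshold. Sftpa1 (-0.81, adjusted p = 0.225) and Sftpd (-0.76, adjusted p = 0.283) were not called. Cd36, a fatty acid transporter that endothelium and macrophages also carry, had -0.08, 1.20 and 0.96 at 72 h and -0.69 to 0.40 in sham (1.07 ± 0.29, adjusted p = 0.0317).

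Of 7 type I cell genes 1 was lower, the anchoring protein gene Akap5, with 2.11, 1.17 and 1.07 at 72 h against 2.77, 2.57, 2.48, 1.97 and 2.36 in sham (-0.98 ± 0.23, adjusted p = 0.0176). The list's median was -0.73. Hopx (-1.19, adjusted p = 0.0742), Ager (-0.84, adjusted p = 0.112) and the water channel Aqp5 (-0.73, adjusted p = 0.192) were not called. The mean over the 7 genes was 0.81 to 1.35 on the 72 h arrays and 1.38 to 2.10 on the sham arrays, ranges that came close without overlapping. Their median on each array was 0.96 to 1.75 at 72 h and 1.25 to 2.38 in sham, and these ranges overlapped. On sham replicate 2, the array with liver genes, the mean was -0.53 and the median -0.62. The part of lung cell make-up in these changes was not tested.

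**Figure D3:**
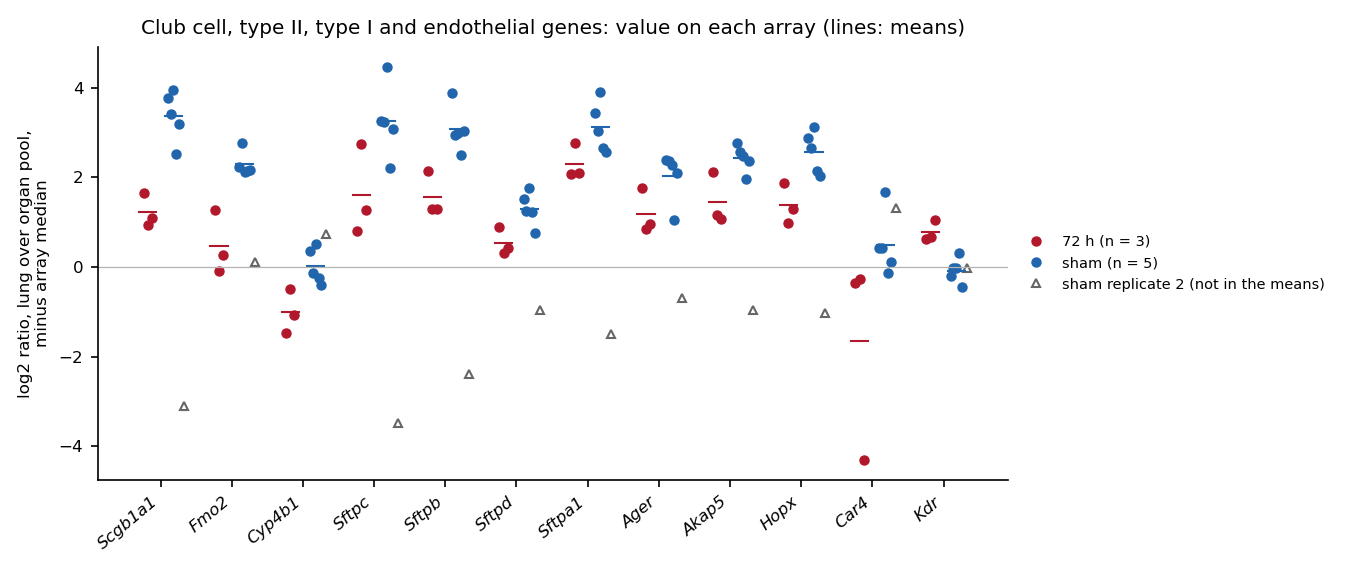
Log2 ratio of lung over organ pool, minus the array median, of 12 genes of club cells, type II cells, type I cells and endothelium on each array: 72 h (red, n = 3), sham (blue, n = 5, lines are means) and sham replicate 2 (open triangles, not in the means). Scgb1a1 at 72 h lies at 0.94 to 1.65 against 2.52 to 3.96 in sham, Sftpc overlaps between the groups, and a single 72 h array holds Car4 at -4.31.

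Endothelial genes had 1 of 19 members higher and 2 lower, with a median of -0.33. Over all features 1.86% were higher and 3.44% lower. Kdr, the main VEGF receptor of endothelium, had 0.63, 0.67 and 1.06 at 72 h, against -0.20, -0.03, -0.03, 0.32 and -0.45 in sham (0.86 ± 0.24, adjusted p = 0.0398). Acvrl1, the endothelial receptor ALK1, was lower by -0.72 ± 0.21 (adjusted p = 0.0481). Car4, the carbonic anhydrase of lung capillaries, had -0.36, -0.27 and -4.31 at 72 h, against 0.42, 0.42, 1.67, -0.14 and 0.11 in sham. The change of -2.14 ± 0.60 (adjusted p = 0.0403) rests on 72 h replicate 3, without which it was -0.81 (adjusted p = 0.395). Pecam1, Cdh5, Tek and Vwf carry no value here.

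Pgf, placental growth factor, a VEGF family ligand of Flt1, had 1.26, 2.61 and 0.69 at 72 h, against -1.19, -0.87, 0.35, -0.98 and -1.0 in sham (2.26 ± 0.56, adjusted p = 0.0223). With Kdr it made 2 higher and 0 lower of 18 VEGF and angiogenic factor genes, whose median was 0.06. Vegfa itself changed by -0.86 (adjusted p = 0.124), Angpt1 by 1.22 (adjusted p = 0.0817) and the receptor Flt1 by -0.34 (adjusted p = 0.378). Pgf was called in 6 of the 8 repeats with 1 array left out, and not without 72 h replicate 2 (adjusted p = 0.172). Its value on sham replicate 2 was -4.77.

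The gene with the smallest p among all features was Fgfr3, a receptor for fibroblast growth factors. Fgfr3 had -1.27, -1.40 and -2.31 at 72 h, against 0.54, 0.45, 0.70, 0.24 and 0.75 in sham, with 0.61 on sham replicate 2. All sham values lay above the organ pool and all 72 h values below it. The change was -2.19 ± 0.30 (adjusted p = 0.00087). The other receptors measured were Fgfr1 (-0.49, adjusted p = 0.144) and Fgfr2 (-0.28, adjusted p = 0.479).

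Among the ligands Fgf8, Fgf9 and Fgf17 were lower, 3 of 22 measured Fgf genes. Fgf9, which mesenchyme reads during lung growth, had 0.12, -0.77 and -0.65 at 72 h, against 0.66, 1.09, 0.55, 0.51 and 0.75 in sham (-1.15 ± 0.22, adjusted p = 0.00545). Fgf8 had -0.52, -0.75 and -0.93 at 72 h, against 0.16, 0.54, 0.52, 0.55 and 0.01 in sham (-1.09 ± 0.22, adjusted p = 0.00699). Fgf17, a relative of Fgf8, changed by -1.29 ± 0.33 (adjusted p = 0.0254). Fgfbp1, a secreted carrier that releases FGFs from the matrix, was higher by 0.87 ± 0.22 (adjusted p = 0.0257). The list of 26 genes had 1 higher and 4 lower, where all features had 1.86% higher and 3.44% lower. Its median was -0.08, and members above 0 without a call included Fgf2 (0.99, adjusted p = 0.0599) and Fgf4 (1.13, adjusted p = 0.0763).

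Hes5 encodes a repressor that Notch signalling switches on. Hes5 had -0.94, -1.34 and -1.85 at 72 h, against 0.54, 0.50, 0.88, 0.45 and 0.91 in sham and 0.87 on sham replicate 2. The change was -2.03 ± 0.37 (adjusted p = 0.00261), and it was called with each array left out. Its promoter is shown because Hes5 is the Notch target with a called change that rests on no single array; the window is chr5:170804327-170804626 of GRCr8 on the plus strand, from RefSeq. Capitals mark 2 matches to GTGGGAA, the motif of the Notch effector RBPJ, at -242 to -236 on the opposite strand and at -99 to -93 on the written strand; 6.29% of windows hold at least 1 on either strand.
Hes5: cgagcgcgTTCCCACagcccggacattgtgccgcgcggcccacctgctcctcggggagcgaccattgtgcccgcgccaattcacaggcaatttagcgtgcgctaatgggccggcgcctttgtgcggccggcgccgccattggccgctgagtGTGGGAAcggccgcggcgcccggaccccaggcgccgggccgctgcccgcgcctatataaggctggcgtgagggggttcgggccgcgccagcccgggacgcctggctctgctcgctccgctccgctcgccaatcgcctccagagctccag

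Hes3, a relative, was lower by -1.16 ± 0.28 (adjusted p = 0.0182), with -0.90, -0.65 and -0.44 at 72 h against 1.06, 0.17, 0.63, 0.07 and 0.56 in sham. Hes1 (0.03, adjusted p = 0.962) and Hes2 (-0.19, adjusted p = 0.85) were not called. The 15 Notch pathway genes had 0 higher and 2 lower, beside 3.44% lower over all features, and a median of -0.03. Receptors and ligands among them were near sham: Notch2 changed by -0.10, Notch3 by 0.35, Jag1 by 0.26 and Dll1 by 0.04.

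Antioxidant genes had 0 of 44 higher and 3 lower, where 3.44% of all features were called lower, and the median of the list was -0.01. Gpx4, the glutathione peroxidase that reduces lipid hydroperoxides in membranes, had -0.23, -0.70 and -1.27 at 72 h, against 1.24, 0.87, 0.90, 0.98 and 0.76 in sham (-1.69 ± 0.28, adjusted p = 0.00178). Gpx3, the secreted plasma form, had -1.38, -1.56 and -1.40 at 72 h, against -0.87, -0.22, -0.33, -0.56 and -0.16 in sham (-1.02 ± 0.23, adjusted p = 0.0135). Selenom, another selenoprotein, changed by -1.01 ± 0.20 (adjusted p = 0.00699). All 3 proteins hold selenocysteine. Gpx1, the cytosolic form, also a selenoprotein, changed by 0.89 without a call (adjusted p = 0.232), and Sod1 by -0.94 (adjusted p = 0.0501).

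Chaperone genes had 0 of 43 higher and 4 lower, beside 3.44% lower over all features, with a median of -0.09. Stip1, which links Hsp70 to Hsp90, had 0.35, -1.12 and -0.50 at 72 h, against 0.96, 1.24, 0.88, 1.08 and 0.84 in sham (-1.42 ± 0.37, adjusted p = 0.0259). Hspa1a, the heat-inducible Hsp70, had -0.89, -1.81 and -1.78 at 72 h, against -0.07, -0.65, -0.50, -0.53 and -0.09 in sham (-1.12 ± 0.24, adjusted p = 0.00938). Hspa2 changed by -1.25 ± 0.36 (adjusted p = 0.0412). Hspe1, the mitochondrial co-chaperonin Hsp10, had -0.58, -0.81 and -0.38 at 72 h, against 0.62, 0.26, 0.87, 0.34 and 0.54 in sham (-1.12 ± 0.29, adjusted p = 0.0272). Its promoter is shown for its heat shock elements; it covers chr9:64084077-64084376 of GRCr8 on the plus strand, from RefSeq. Capitals mark 2 overlapping matches to GAA, TTC and GAA with 2 bases between neighbours, at -65 to -53 on the opposite strand and at -60 to -48 on the written strand; 0.798% of windows hold at least 1.
Hspe1: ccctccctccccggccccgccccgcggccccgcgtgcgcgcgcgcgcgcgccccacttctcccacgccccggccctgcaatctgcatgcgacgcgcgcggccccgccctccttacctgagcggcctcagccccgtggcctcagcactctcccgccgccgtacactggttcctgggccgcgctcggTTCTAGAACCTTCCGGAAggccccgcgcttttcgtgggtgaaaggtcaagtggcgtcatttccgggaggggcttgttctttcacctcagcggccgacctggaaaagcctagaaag

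Immediate early genes, which respond within minutes to stress and growth signals, had 0 of 36 higher and 3 lower at this late time. Over all features 3.44% were lower, and the median of the list was -0.05. Fos had -1.0, -1.51 and -1.27 at 72 h, against -0.59, -0.15, -0.55, -0.10 and 0.08 in sham (-1.0 ± 0.25, adjusted p = 0.023). Jund, a partner of Fos in AP-1, changed by -1.37 ± 0.34 (adjusted p = 0.0232) and Gadd45g by -0.76 ± 0.21 (adjusted p = 0.041). Jun (-0.71, adjusted p = 0.0802), Cebpb (-1.13, adjusted p = 0.0584) and Egr1 (0.80, adjusted p = 0.16) were not called.

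**Figure D4:**
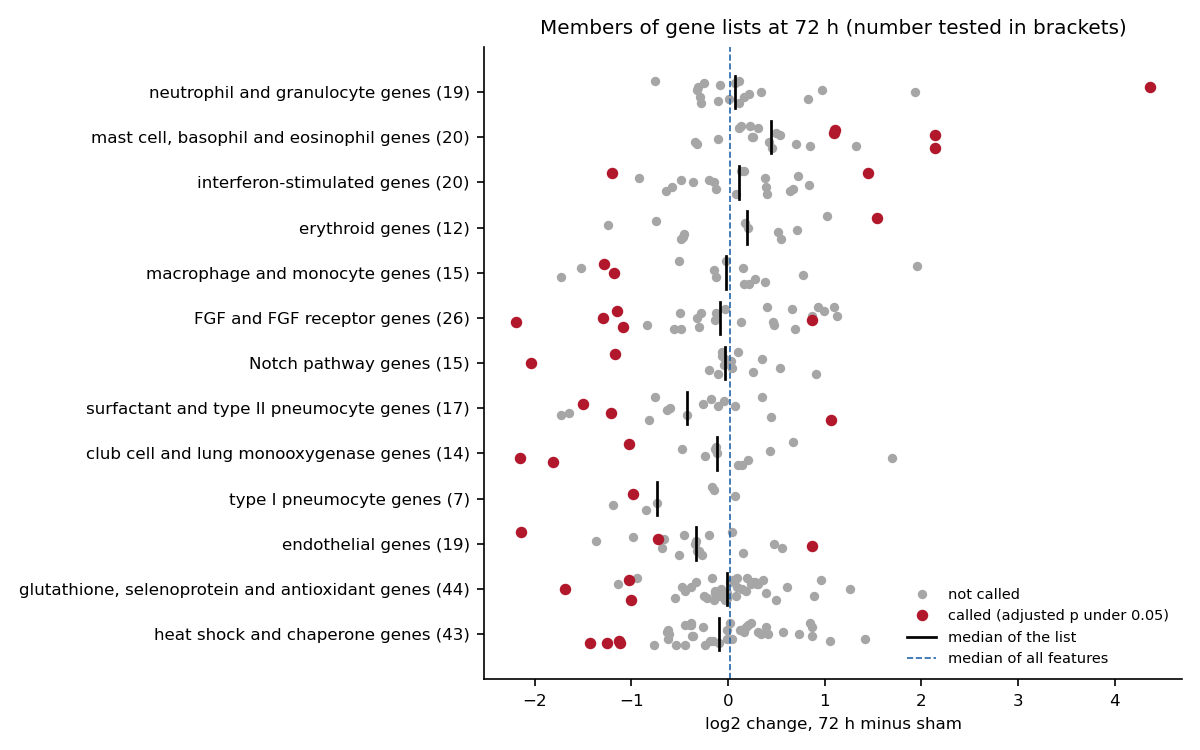
Log2 change at 72 h against sham of each tested member of 13 gene lists, with called members in red, others in grey, the list's median as a black bar and the median of all features as a dashed line. Mast cell, basophil and eosinophil genes have a median of 0.44 and type I cell genes of -0.73; most members of each list are not called, and Mmp8 at 4.37 stands far from the other neutrophil genes.

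Among erythroid genes Rhag, which encodes the Rh-associated glycoprotein of the red cell membrane, was the 1 call of 12 tested. Rhag had 0.37, 0.08 and -0.03 at 72 h, against -1.78, -1.62, -1.18, -1.32 and -1.12 in sham (1.54 ± 0.36, adjusted p = 0.0179). Rhag was called in 6 of the 8 repeats with 1 array left out, and not without 72 h replicate 2 (adjusted p = 0.077). Gata1, the erythroid and mast cell transcription factor, went the other way by -1.24 ± 0.37 (adjusted p = 0.0501, not called), and Alas2 and Hba-a1 were not called. The mean over the 12 genes was -0.15 to 0.05 at 72 h and -0.33 to -0.07 in sham, and these ranges overlapped. Their median on each array was -0.02 to 0.10 at 72 h and -0.53 to -0.06 in sham, without overlap. Rhag's promoter, shown because Rhag was the erythroid gene called, covers chr9:27594341-27594640 of GRCr8 on the minus strand, from RefSeq; capitals mark the 1 match to the GATA motif TGATAA, on the opposite strand at -31 to -26, a motif present in 9.03% of windows.
Rhag: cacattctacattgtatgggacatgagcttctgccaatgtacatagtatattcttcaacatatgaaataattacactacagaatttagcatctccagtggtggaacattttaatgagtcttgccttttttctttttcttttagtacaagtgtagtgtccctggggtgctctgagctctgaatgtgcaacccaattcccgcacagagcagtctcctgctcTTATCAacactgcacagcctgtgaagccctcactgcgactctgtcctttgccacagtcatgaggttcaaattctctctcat

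Receptors and signalling genes outside these lists were among those with large changes. Nr3c2, the mineralocorticoid receptor, had -0.81, -1.38 and -2.04 at 72 h, against 0.88, 0.51, 0.11, 0.41 and 0.31 in sham (-1.85 ± 0.32, adjusted p = 0.00217). Avpr1b, a vasopressin receptor best known from the pituitary, had -0.63, -1.46 and -1.14 at 72 h and 0.35 to 0.99 in sham (-1.65 ± 0.31, adjusted p = 0.00445). Nppc, the C-type natriuretic peptide, was higher by 1.51 ± 0.43 (adjusted p = 0.041). Avpr1b and Nppc were the calls among 57 vasoactive mediator genes, whose median was -0.11. Of 24 lung ion and water transport genes, the sodium pump subunit Atp1b1 (-1.13 ± 0.34) and the pump regulator Fxyd5 (-0.88 ± 0.26) were lower, both with an adjusted p of 0.0481.

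Of 8 measured genes whose symbols begin with Camk, calcium/calmodulin-dependent kinases and the kinase inhibitors Camk2n1 and Camk2n2, 3 were lower and 0 higher, where 3.44% of all features were called lower. The family was taken up through Camk2a and is 1 of many that could be counted. Of 33 Rab genes 3 were lower and 0 higher, and of 147 Slc genes 2 were lower and 1 higher. Camk2d had -0.94, -1.40 and -1.20 at 72 h, against 0.29, 0.03, 0.82, 0.93 and 0.21 in sham (-1.64 ± 0.36, adjusted p = 0.0121). Camk2g changed by -1.51 ± 0.39 (adjusted p = 0.0249) and Camk2a by -0.78 ± 0.22 (adjusted p = 0.0406), while Camk2b was at -0.60 without a call. Separate Camk2a probes had -0.89 (adjusted p = 0.0417), -0.76 (adjusted p = 0.189) and -0.68 (adjusted p = 0.181). The groups of Camk2a overlapped, and it was called in 2 of the 8 repeats with 1 array left out. Pth2r, a receptor of the parathyroid hormone family, changed by -2.18 ± 0.55 (adjusted p = 0.0239), and Gabrd, a GABA receptor subunit, by -1.98 ± 0.39 (adjusted p = 0.00654).

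Genes of RNA and protein handling supplied several calls that rest on no single array. Ddx39b, an RNA helicase of splicing and export, had -1.51, -2.05 and -2.01 at 72 h, against -0.47, 0.03, -0.25, 0.24 and 0.32 in sham (-1.83 ± 0.31, adjusted p = 0.00186). Rpl36, a protein of the large ribosomal subunit, had -0.11, -1.20 and -1.44 at 72 h, against 1.56, 1.14, 0.96, 0.83 and 1.02 in sham (-2.02 ± 0.32, adjusted p = 0.00178). Phrf1, a ubiquitin ligase, changed by -1.97 ± 0.35 (adjusted p = 0.00235). Ube3a, the ubiquitin ligase known from Angelman syndrome, had 0.60, 1.16 and 0.98 at 72 h, against -0.63, -0.42, -0.42, -1.19 and -1.19 in sham (1.69 ± 0.25, adjusted p = 0.00178). Gemin2, which helps to assemble small nuclear ribonucleoproteins, had 0.06, 0.69 and 0.12 at 72 h, against -1.13, -1.02, -1.16, -2.09 and -1.54 in sham (1.68 ± 0.28, adjusted p = 0.00182).

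Other large changes came from genes of mixed function. Rbbp9, a serine hydrolase, was higher by 2.14 ± 0.45 (adjusted p = 0.00938), the nucleoside transporter gene Slc28a3 by 2.03 ± 0.53 (adjusted p = 0.0287) and As3mt, an arsenic methyltransferase, by 1.94 ± 0.57 (adjusted p = 0.047). Of the 8 repeats with 1 array left out, As3mt was called in 0, Slc28a3 in 3 and Rbbp9 in 7. Fzd3, a Wnt receptor, had -0.01, 0.14 and 0.08 at 72 h, against -1.88, -1.84, -1.09, -1.86 and -2.17 in sham (1.84 ± 0.44, adjusted p = 0.0185). Atp2c2, a calcium and manganese pump of the secretory pathway, was higher by 1.50 ± 0.24 (adjusted p = 0.00178), and Cnnm1, of a family of magnesium transport proteins, by 1.69 ± 0.32 (adjusted p = 0.00403). On the lower side Rab7a, the small GTPase of late endosomes, had -0.81, -2.24 and -1.88 at 72 h, against 0.51, 0.16, 0.13, 0.65 and 0.35 in sham (-2.0 ± 0.38, adjusted p = 0.00452). Dpf1 had the largest fitted change, 4.63 ± 1.16 (adjusted p = 0.0248), but 3 of its spots lay near the floor of the scale and sham gave 4 values between -6.64 and -1.32, so its size is coarse. Aadat, a kynurenine aminotransferase, changed by -2.31 ± 0.54 (adjusted p = 0.0176) with 2 spots near the floor, and without 72 h replicate 3 by -1.49 (adjusted p = 0.191).

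Calls in housekeeping sets and further lists stand beside 1.86% higher and 3.44% lower over all features. Of 50 cytoplasmic ribosomal protein genes Rpl26 was higher and Rpl36, Rpl35 and Rps14 were lower, with a median of -0.30 and 39 of 50 below 0. Of 43 respiratory chain genes Uqcrh was higher and Cox5b was lower, with a median of -0.30 as well and 32 of 43 below 0. The median on each array overlapped between the groups for both lists. Without 72 h replicate 3 Uqcrh changed by 0.86 (adjusted p = 0.32) in place of 1.48. Among 41 hypoxia-responsive and glycolytic genes Pdk1, the kinase that turns off pyruvate dehydrogenase, was the 1 call, with 1.31 ± 0.34 (adjusted p = 0.0254). In the apoptosis list of 36 genes Casp12 was higher (1.07 ± 0.32) and Bok (-0.92 ± 0.23) and Aifm1 (-0.83 ± 0.22) were lower. Of 15 clock genes 1 was called, Usp2 (1.79 ± 0.47, adjusted p = 0.0282). Of 36 cell cycle genes 0 were called by limma, with 7 at an unadjusted p under 0.05.

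Genes typical of other organs were counted as a check of the tissue. Of 48 liver genes F2 was higher and Cyp2c23, Fga and Apoc1 were lower, with a median change of 0.01. The mean over the 48 genes was -0.55 to -0.45 at 72 h and -0.68 to -0.40 in sham, against 2.31 on sham replicate 2. Of 15 gut and skin genes 0 were higher and 3 lower (Muc2, Krt5 and Anpep), with a median of -0.78, the furthest from 0 of the 34 lists. The mean over these 15 genes was -1.34 to -0.83 at 72 h and -0.69 to -0.52 in sham, without overlap. Their median on each array was -1.19 to -1.09 at 72 h and -0.72 to -0.56 in sham, also without overlap. The muscle list had 1 of 23 lower (Myl2), the brain list 3 of 23 (Mbp, Pvalb and Camk2a), the kidney list 1 of 13 (Slc22a6), and the spleen and adipose list 2 of 10 (Fabp4 and Lep). The proteasome list had 1 of 30 lower (Psmb7), with 0.08 as its median.

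Against uninstrumented control lungs, which enter the sham comparison only through the shared estimate of the spread, 101 of 6171 features were higher at 72 h (1.64%) and 127 were lower (2.06%), together 3.69%. The 2 comparisons share the 72 h arrays. Mmp8 was higher than control by 4.80 (adjusted p = 0.00501), Mcpt10 by 2.18 (adjusted p = 0.0108), Ccr3 by 1.43 (adjusted p = 0.0119) and Rsad2 by 1.34 (adjusted p = 0.0154); Rhag stood 1.56 above control (adjusted p = 0.0352). Below control were Nr3c2 by -2.32, Fgfr3 by -2.21, Ddx39b by -2.02, Hes5 by -1.74, Ctsh by -1.28 and Gpx4 by -1.26, all called. Scgb1a1 (-1.54, adjusted p = 0.144), Fmo2 (-0.85, adjusted p = 0.259) and Sftpb (-0.79, adjusted p = 0.199) were below control without a call. Ube3a differed from control by 1.03 (adjusted p = 0.0661) and Dpf1 by 0.68 (adjusted p = 0.797). The control count rests on single arrays: it was 3 without control replicate 1 and 510 without control replicate 3.

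Set directly against lungs taken at 48 h, 0 of 6156 features were called by limma, and 414 had an unadjusted p under 0.05 (6.73%). Mmp8 was 1.87 above its 48 h level (adjusted p = 0.703), Fgfr3 differed from its 48 h level by -1.23 (adjusted p = 0.467), and Ctsh differed by 0.16 (adjusted p = 0.882).

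Against 24 h, 13 of 6140 features were higher at 72 h (0.212%) and 15 lower (0.244%). Rsad2 was among the higher: it had 0.73, 1.73 and 1.50 at 72 h, against -0.31, -0.39 and 0.32 at 24 h, a change of 1.45 ± 0.29 (adjusted p = 0.0207). Slc22a8, an organic anion transporter, had 0.03, 0.39 and 0.50 at 72 h, against -0.98, -1.68 and -1.13 at 24 h (1.57 ± 0.23, adjusted p = 0.00147), with 0.01 as the sham mean. Ifng was lower than at 24 h by -1.20 (adjusted p = 0.0435), Pvalb, a calcium buffer of muscle and neurons, by -1.54 (adjusted p = 0.00957) and Car4 by -3.01 (adjusted p = 0.041), the last with the low replicate 3. Adrb1, the beta-1 adrenergic receptor, had -0.28, -1.29 and -1.01 at 72 h, against 1.15, 0.74 and 0.95 at 24 h (-1.81 ± 0.35, adjusted p = 0.0195), with a sham mean near the organ pool. Without centring of the arrays 46 features were called (36 higher and 10 lower). Uncentred log2 changes then had a median of 0.19 across the features tested. The count was 2 without 24 h replicate 1, 203 without 24 h replicate 2, 116 without 72 h replicate 1 and 2 without 72 h replicate 3.

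Levels over the whole course place the 72 h values, with sham and control first and times in order. Mmp8 averaged -2.38 in sham, -1.59 at 1 h, 0.09 at 3 h, -1.09 at 6 h, -2.48 at 16 h, -0.19 at 24 h, 0.12 at 48 h and 1.99 at 72 h. Rsad2 averaged -0.13 in sham, between -0.54 and -0.13 from 1 h to 24 h, 0.40 at 48 h and 1.32 at 72 h. Both had their highest group mean at 72 h. Rhag averaged -1.40 in sham and -1.78 at 1 h, and then -0.15 at 16 h, 0.14 at 24 h, -0.32 at 48 h and 0.14 at 72 h. Fgfr3 averaged 0.53 in sham, 0.48 at 6 h, -0.56 at 24 h, -0.43 at 48 h and -1.66 at 72 h. Ctsh averaged 1.42 in sham, 0.96 at 6 h, 0.53 at 16 h, 0.39 at 24 h, 0.05 at 48 h and 0.21 at 72 h. Apart from the comparisons with 48 h and 24 h above, differences between times were not tested.

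**Figure D5:**
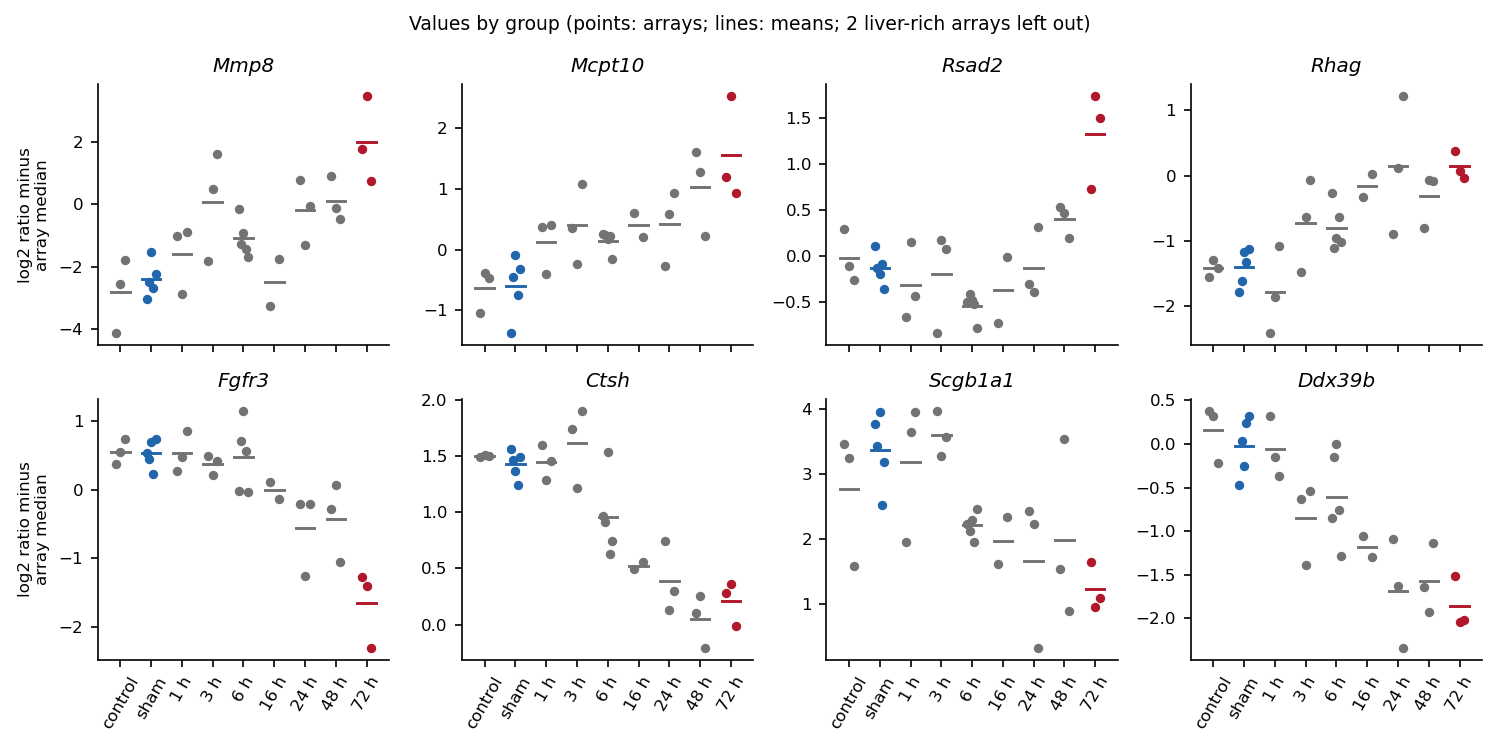
Log2 ratio of lung over organ pool, minus the array median, of 8 genes in control and sham lungs and at 1 to 72 h after hemorrhage; points are arrays and lines group means (5 arrays in sham and at 6 h, 2 at 16 h, 3 in the other groups). Mmp8, Mcpt10 and Rsad2 have their highest mean at 72 h, Fgfr3, Scgb1a1 and Ddx39b their lowest, and Ctsh has its lowest mean at 48 h. The 8 genes were called at 72 h against sham, which favours an extreme mean at 72 h. Between 72 h and 48 h 0 of 6156 features were called (limma).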

How the data were processed

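Lung RNA was measured in 32 samples, 1 array each. The deposited values are log2 ratios over a pool of rat organ RNA; which dye marked which channel and how arrays were scanned and normalized is not stated in the sources used here. Any shift common to all genes of an array may already have been taken out by the authors. As linear ratios 100% of the deposited values fell within 0.001 of a hundredth, with 0.01 as the lowest; spots with a ratio up to 0.05 count as near the floor. The direction, lung over pool, was read from lung genes.

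Each array's median was subtracted and the spots of a gene were averaged. This gave 6223 features: 5022 genes with 1 symbol, 7 features with several and 1194 neighbouring spot pairs without one. Current rat gene tables hold 5006 of the 5022 Entrez identifiers, and 0 symbols changed. The number of arrays limits the precision.

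limma 3.58.1 (R 4.3.3, two-sided) was run once over 30 arrays and 9 groups; sham replicate 2 and 16 h replicate 3 were left out for their liver signal. Features needed values on at least 2 of the 72 h arrays and 3 of the sham arrays (2 in both groups in other comparisons). A Benjamini-Hochberg adjusted p under 0.05 over all features is a call, in each of 4 comparisons. Errors after a change are SEs of the fit.

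The members, the 34 gene lists and the tests were chosen with earlier results of these data known. Named genes had 1 symbol, were called and did not overlap between groups, and the 15 with the largest change on either side were taken. Called list members were added, at most 4 from a list, or the one with the smallest p where none was called, and family members where a sentence counts them. Further list members are examples chosen after their values were seen. Lists were counted, with no test. The calculation was tested on simulated data. Promoters (GRCr8) came from RefSeq. Alternatives were scaling, filters, averaging per probe, the arrays in the fit, a replicate block and omission of each array.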

Additional observations from a re-analysis of the deposited data

Results flagged for a closer look

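Among 94 named genes, 6 had a sham array whose distance from the other sham arrays was over 0.710 of the range of the 5 values; chance gives about 1 in 20. Sham replicate 4 stood high for Pgf (0.35) and Pzp (0.91), sham replicate 3 for Fmo2 (2.77), and sham replicate 1 for Cd36 (0.40) and Lep (0.69); sham replicate 1 stood low for Uqcrh (-1.50). None of these values closed the gap between the groups except that of Cd36, which overlapped with 72 h replicate 1.

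Of the 28 features called between 72 h and 24 h by a direct test (limma), 10 were also called against sham. All 10 differed in the same direction, but both comparisons use the same 72 h arrays, which favours such agreement. Of these 10, 4 are among the named genes. Those 4 differed from 24 h as follows: Rsad2 by 1.45 (adjusted p = 0.0207), Ifng by -1.20 (adjusted p = 0.0435), Pvalb by -1.54 (adjusted p = 0.00957) and Car4 by -3.01 (adjusted p = 0.041). Rsad2 was higher and Pvalb and Ifng were lower on 3 of 3 arrays at 72 h than on each array at 24 h, and Car4 likewise, with 1 array at -4.31. The genes were picked by their call in this same comparison, so the separation adds no support. How many of all features separate in this way was not counted.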

How the results depend on the processing

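Counts of features called depended on the arrays in the fit. Against sham (327), the count was 177 with all 32 arrays, 217 with only the arrays compared, 113 with the replicate number as a block (107 of them among the 327) and 31 to 465 with 1 array left out; sham replicate 2 put back, scaling, filters, averaging per probe and a robust variance model kept it within 1.5 times. Against control (228), it was 89 with all 32 arrays, 0 with only the arrays compared (1241 at an unadjusted p under 0.05), 127 with the block and 3 to 510 with 1 array left out. Against 24 h (28), it was 7 with all 32 arrays, 0 with only the arrays compared (836 at an unadjusted p under 0.05), 46 without centring, 2 with the block and 2 to 203 with 1 array left out. Against 48 h it was 0 under every alternative run. The cause of these shifts was not tested. Deviations from the group mean on same-numbered arrays correlated at -0.07 and 0.06 between 72 h and sham and at -0.24 to 0.16 with control. They correlated at 0.09 to 0.32 with 48 h and at -0.26 to 0.07 with 24 h. Differently numbered arrays were not set beside these, so whether replicate numbers pair the samples was not tested. Of 1789 repeats for the 94 named genes, 1314 kept direction and side of the threshold, 471 lost the call, 3 gained it and 1 reversed, a Cyp4b1 probe at 0.16 (adjusted p = 0.805). Leaving out 72 h replicate 3 took 76 of the 94 off their side and 72 h replicate 2 took 70; 14 of 92 called genes were called with each array left out. Paired-spot scatter and ratios near the floor limit what low values can show.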
